A study of Bos taurus with 12 samples.

Results

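Transcripts of the constitutive proteasome and of the main chaperone families were followed in chromaffin cells of cattle, the adrenal medulla cells that store and secrete catecholamines, kept in culture. Members were chosen by gene symbol alone: proteasome subunits and their helpers (PSMA to PSMG), heat shock proteins (HSP), J-domain proteins (DNAJA, DNAJB, DNAJC), the cytosolic chaperonin (CCT), disulfide isomerases (PDIA), FK506-binding proteins (FKBP) and cyclophilins (PPIA to PPIH). PSMB8, PSMB9, DNAJC3 and HSP90B1 were set aside by the rule. This gave 112 of 9155 named genes, on 157 probe sets, and each gene was read from its brightest probe set over the 12 arrays. The 4 groups had 3 single-colour Affymetrix arrays each. One group had received 10 nM interleukin-6 (IL6) and another 1 nM human interferon alpha (IFNα), both for 24 h. A further group had received 10 µM histamine for 6 h, and the last was untreated. The culture time of untreated cells and the number of animals were not given in the sources used here. Triplicates are called technical repeats by the submitters, so every p-value below measures the spread between these arrays only.

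The proteasome is the protease that degrades ubiquitin-tagged proteins. Its 20S core is a barrel of alpha subunits (PSMA) and beta subunits (PSMB), of which PSMB5, PSMB6 and PSMB7 carry the active sites, and the 19S regulatory particle of ATPases (PSMC) and non-ATPase subunits (PSMD) unfolds and feeds in the substrate. Under interferons, PSMB8, PSMB9 and PSMB10 replace the standard catalytic subunits and the PA28 activator made of PSME1 and PSME2 docks on the core, which shapes peptides for MHC class I. Chaperones work upstream of it: HSP70 proteins bind unfolded chains with J-domain partners and HSP110 exchange factors, HSP90 and CCT finish selected clients, and PDIA, FKBP and PPI enzymes form disulfides or isomerise proline bonds. Chromaffin cells load much newly made peptide and enzyme into secretory granules and therefore rely on both folding and clearance.

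The label "constitutive" did not hold for every member, because PSMB10, PSME1 and PSME2 match the rule and belong to the interferon-inducible form. PSME3IP1 matches by its letters but is a binding partner of a PA28 protein and no subunit, and HSPBP1 and HSPBAP1 bind heat shock proteins. Proteasome genes made up 37 members. TCP1 and PDIA6 were not analysed here. Values are log2 expression values, and differences between groups are log2 changes.

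On the whole arrays, repeats of a group correlated at 0.993 to 0.998 over probe sets. Of 10 chromaffin markers measured, 9 lay above the upper quartile of every array, against 2 of 11 adrenal cortex markers, 1 of 11 fibroblast and mural markers, 0 of 7 endothelial and 0 of 7 leukocyte markers. A list of 25 glycolysis and hypoxia genes stood 0.68 and 1.03 above the untreated mean on IL6 repeats 2 and 3 and 0.74 above it on IFNα repeat 3, against 0.11 on IL6 repeat 1 and -0.04 and -0.01 on IFNα repeats 1 and 2. In this bulk RNA, fewer cells of a type and less RNA per cell cannot be told apart. Of the members, 84 were above the upper quartile of every array, 2 (DNAJC22 and HSPB6) were below the lower quartile of every array, and none was left out for a low value. The brightest members, HSP90AA1 and HSPA8, averaged 13.01 and 12.90 over all arrays, short of the array maxima of 14.01 to 14.14.

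Below, a member is said to have risen or fallen where limma gave an adjusted p under 0.05 over all 24016 probe sets, whatever the size, and changes of at least 1.5-fold are counted separately. In the moderated F test over the 4 groups, 92 of 112 members differed (82.1%), against 49.1% of all probe sets. Bright genes pass more readily on these arrays, so shares are also given for the 3271 named genes above the upper quartile of every array.

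**Figure D1:**
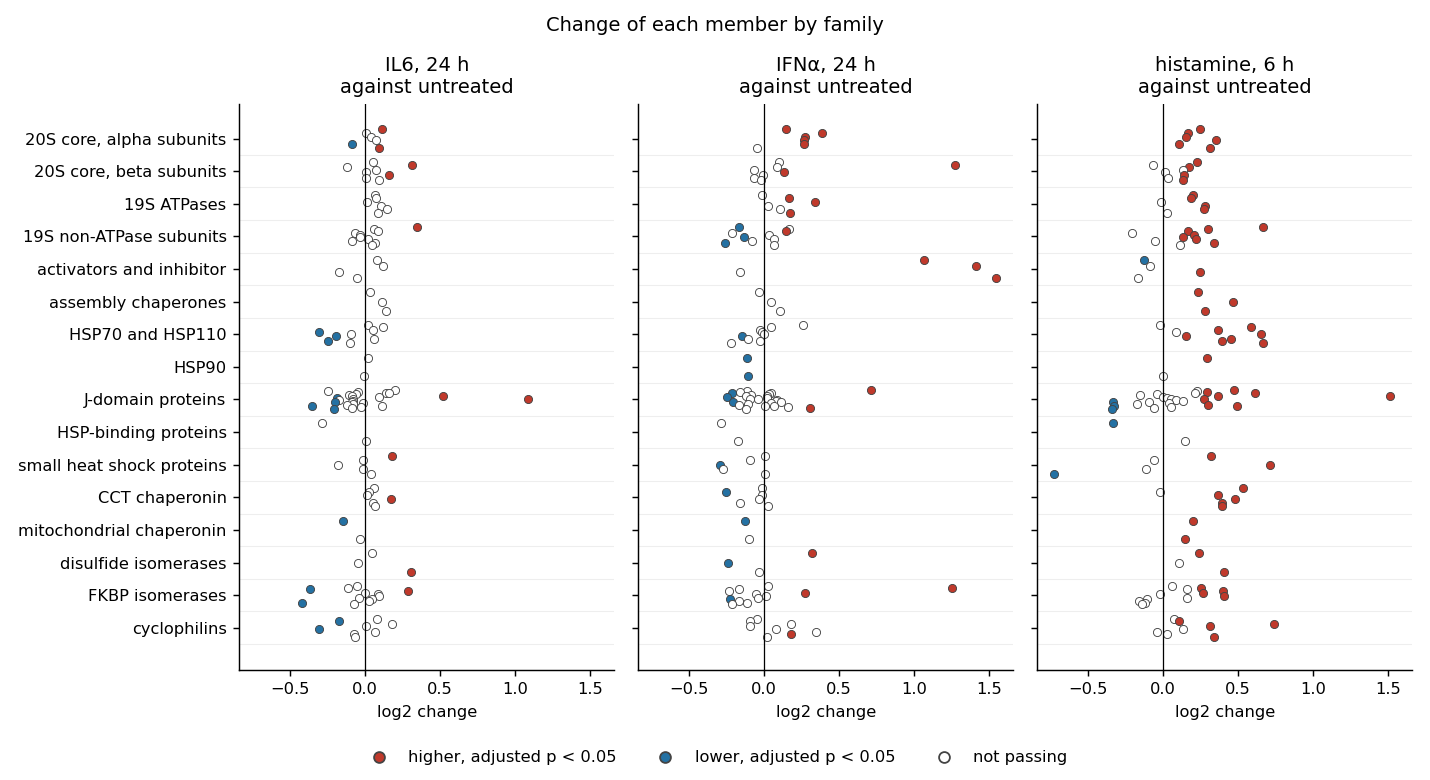
Log2 change of 111 members (x axis, PSME3IP1 left out) by family (rows) after IL6, IFNα and histamine against untreated cells. Red and blue points had a limma adjusted p under 0.05. After IFNα the activator row holds 3 points above 1.0, and after histamine most rows lie to the right of 0.

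IL6 changed 1 of these genes by at least 1.5-fold. It was DNAJC12, the J-domain cochaperone of aromatic amino acid hydroxylases, a group that includes the tyrosine hydroxylase of catecholamine synthesis. DNAJC12 read 11.71, 11.55 and 11.43 on IL6 arrays, against 10.47, 10.53 and 10.44 on untreated arrays. All IL6 arrays lay at least 0.9 above all untreated arrays. The rise was 2.12-fold (log2 change 1.08, SE 0.06; limma, adjusted p = 2.23e-08). On IFNα and histamine arrays DNAJC12 read between 10.33 and 10.56, with changes of -0.09 and 0.05 that did not pass. Its client gene TH had changes of 0.21 after IL6, -0.05 after IFNα and 0.30 after histamine, of which the first and the last passed. TH lay between 13.36 and 13.76 on all arrays, near the array maxima.

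Over all members 11 rose and 13 fell after IL6, and 88 did not pass. That is 21.4% of members, against 17.4% of all probe sets (6.68% higher and 10.7% lower), so the share is no result about these families. Among the 84 members above the upper quartile of every array 10.7% rose and 9.52% fell. Of bright named genes 11.9% rose and 18.2% fell (30.1% in either direction, against 20.2% of bright members). A change of at least 1.5-fold was seen in 0.893% of members and 2.39% of probe sets (1.44% higher and 0.949% lower). The median change was 0.02 over members and -0.01 over all named genes. Passing rested partly on single arrays: 6 members rose and 5 fell whichever array was left out. Without untreated repeat 1 the counts were 6 higher and 8 lower, without untreated repeat 3 they were 7 and 7, and without IL6 repeat 3 the lower count was 8.

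Of the 37 proteasome genes, 5 rose and 1 fell after IL6. PSMD1, the large scaffold subunit of the 19S particle, read 10.79, 10.78 and 10.74 on IL6 arrays and 10.37, 10.43 and 10.46 on untreated arrays, without overlap. Its log2 change was 0.35 (SE 0.04; limma, adjusted p = 4.13e-05). PSMB10, the immunoproteasome's trypsin-like subunit, read 9.30, 9.46 and 9.43 on IL6 arrays and 9.06, 9.11 and 9.08 on untreated arrays, a log2 change of 0.31 (limma, adjusted p = 0.000771). PSMB5, the chymotrypsin-like subunit, had 0.16 and passed, but not with eBayes without trend (adjusted p = 0.051). The 3 others (PSMA1 and PSMA7 higher, PSMA6 lower) had changes of 0.12, 0.09 and -0.09 and lost their pass when any of at least 7 arrays was left out. The PA28 genes PSME1 and PSME2 (0.08 and 0.12) and the inhibitor PSMF1 (-0.05) did not pass. PSMB9, outside the rule, rose by 0.53 after IL6, while PSMB8 had 0.06 and did not pass.

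Among the chaperones, DNAJB5, a cytosolic J-domain protein, rose by 0.52 after IL6 (SE 0.12; limma, adjusted p = 0.00774). Its arrays read 8.69, 8.81 and 8.96 after IL6, against 8.24, 8.37 and 8.29 in untreated cells. Without IL6 repeat 1 the change was 0.585 and reached 1.5-fold. With IL6 repeats 2 and 3 and IFNα repeat 3 left out, so that IL6 repeat 1 stood alone, it was 0.39. The dimmer probe set of DNAJB5 had 0.15 and did not pass, and the mean of both was 0.335, which passed. The small heat shock protein HSPB1 rose by 0.18 and passed with each array left out, but with the mean of its 2 probe sets it had 0.10 and did not pass. Downward, 3 of 9 HSP70 and HSP110 genes fell: HSPA2 by 0.31, the mitochondrial HSP70 HSPA9 by 0.24 and HSPA5, the HSP70 of the endoplasmic reticulum (ER), by 0.19. HSPA2 did not pass without untreated repeat 1 (-0.24) or IL6 repeat 3 (-0.27), and HSPA9 and HSPA5 did not pass with the mean of their probe sets (-0.095 and -0.30). The largest fall was that of the ER isomerase FKBP9, which read 7.52, 7.59 and 7.19 after IL6 and 7.93, 7.86 and 7.76 in untreated cells, a log2 change of -0.42 (limma, adjusted p = 0.00699). PPIB, the ER cyclophilin, fell by 0.17, although the mean of its probe sets had 0.015 and did not pass. Of 23 folding isomerases (PDIA, FKBP and PPI) 2 rose and 4 fell after IL6. Those that rose were PDIA5 (0.31) and FKBP1A (0.29). PDIA5 lost its pass when any of 4 arrays was left out, and FKBP1A when any of 5 was. DNAJC27, a small GTPase with a J domain, fell by 0.35. With IL6 repeats 2 and 3 and IFNα repeat 3 left out, the number of members that fell was 4 in place of 13, and HSPA2 (-0.21), HSPA9 (-0.15) and HSPA5 (-0.18) no longer passed. Both HSP90 genes and 5 of 6 CCT genes did not pass. CCT5 had 0.18 and passed, but not without untreated repeat 1 (0.16) or IL6 repeat 1 (0.145). Of 11 cortex markers 6 fell after IL6 and 1 rose, with list means of 6.76 to 6.82 on IL6 arrays and 7.15 to 7.18 on untreated arrays. Of 7 endothelial markers 3 fell, with list means of 5.59 to 5.71 on IL6 arrays and 5.82 to 5.88 on untreated arrays. Of 7 leukocyte markers 2 rose and 1 fell, each by at least 1.5-fold, with list means of 6.47 to 6.53 on IL6 arrays and 6.10 to 6.18 on untreated arrays. The part of these markers in the IL6 changes was not tested.

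**Figure D2:**
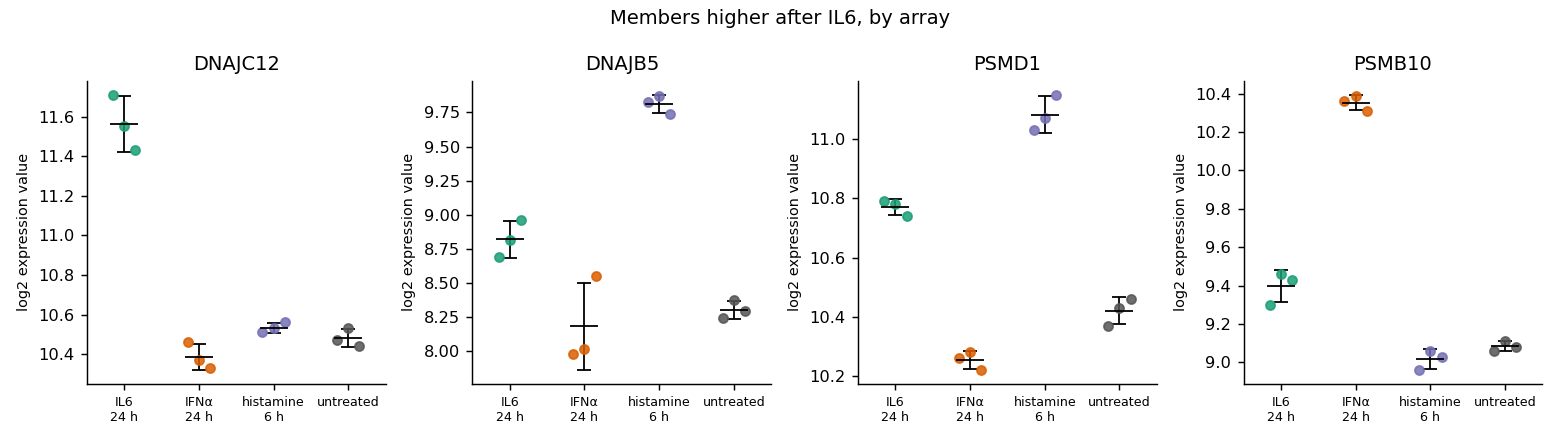
Log2 expression values (y axis) of DNAJC12, DNAJB5, PSMD1 and PSMB10 on each array (points), with group mean and SD (bars, n = 3). DNAJC12 is high on the 3 IL6 arrays only (11.43 to 11.71), whereas DNAJB5 and PSMD1 are higher still after histamine and PSMB10 after IFNα.

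IFNα raised a compact set: 6 members rose by at least 1.5-fold and none fell by that much. They were the inhibitor PSMF1, both PA28 genes PSME2 and PSME1, PSMB10, the ER isomerase FKBP11 and the HSP70 partner DNAJA1. PSMF1, known as PI31 and named for blocking the 20S core in vitro, read 10.52, 10.63 and 10.46 on IFNα arrays and 8.86, 9.10 and 9.01 on untreated arrays. This was 2.92-fold (log2 change 1.55, SE 0.07; limma, adjusted p = 2.08e-10). PSME2 read 11.49, 11.54 and 11.60 on IFNα arrays, against 10.13, 10.15 and 10.11 on untreated arrays, or 2.66-fold (SE 0.04 on the log2 scale). PSME1 read 12.08, 12.09 and 11.99 after IFNα and 10.98, 11.01 and 10.97 in untreated cells, or 2.09-fold. In the gene order of the RefSeq cattle assembly ARS-UCD2.0 these PA28 genes lie with 1 protein-coding gene between them.

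PSMB10 read 10.36, 10.39 and 10.31 on IFNα arrays and 9.06, 9.11 and 9.08 on untreated arrays, or 2.41-fold (log2 change 1.27, SE 0.05). For comparison, the immunoproteasome subunits outside the rule changed by 2.77 (PSMB8) and 3.37 (PSMB9) on the log2 scale. FKBP11, found in the ER of secretory cells, read 9.78, 9.80 and 9.84 after IFNα, against 8.53, 8.59 and 8.54 in untreated cells, or 2.38-fold. DNAJA1 read 10.72, 10.68 and 10.70 after IFNα and 10.04, 10.01 and 9.92 in untreated cells, or 1.64-fold (log2 change 0.71, SE 0.09; limma, adjusted p = 5.61e-05). For these 6 genes the IFNα arrays lay above all untreated arrays by more than the spread within either group. The count of 6 held with each single array left out, and with IL6 repeats 2 and 3 and IFNα repeat 3 left out together.

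**Figure D3:**
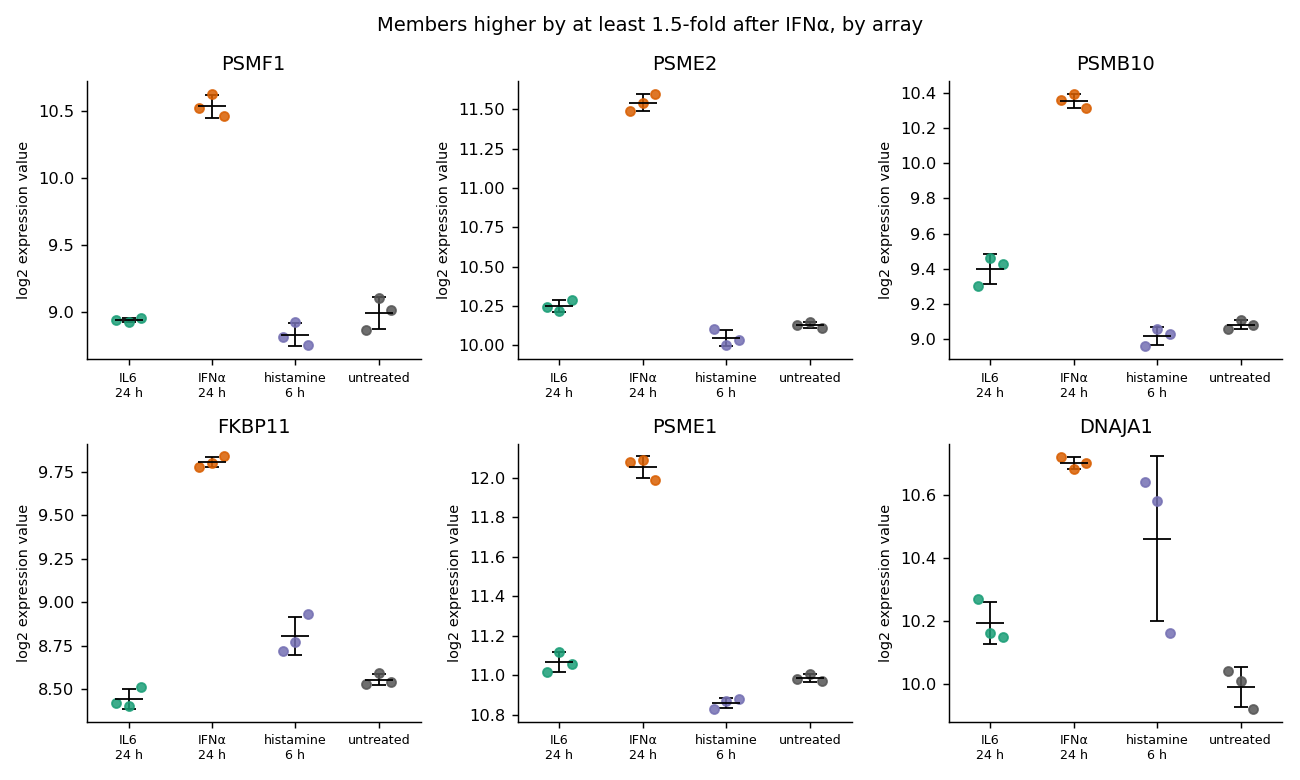
Log2 expression values (y axis) on each array (points), with group mean and SD (bars, n = 3), for the 6 members that rose at least 1.5-fold after IFNα. PSMF1 reads 10.46 to 10.63 after IFNα and 8.86 to 9.10 in untreated cells. For DNAJA1 all histamine arrays (10.64, 10.58 and 10.16) also lie above the untreated arrays (9.92 to 10.04).

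Over all members 21 rose and 14 fell after IFNα (31.3%), against 16.7% of all probe sets (6.74% higher, 9.99% lower). Among the 84 members above the upper quartile of every array, 21 rose and 13 fell (40.5% in either direction). Of bright named genes 11.6% rose and 20.9% fell (32.4% in either direction). At 1.5-fold the share was 5.36% of members and 3.36% of probe sets (2.18% higher and 1.18% lower). The median change was -0.01 over members and -0.02 over all named genes. Whichever array was left out, 18 of the 21 rose and 7 of the 14 fell.

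The standard core and 19S genes that rose did so by at most 1.31-fold. Of 6 alpha subunits 5 rose, with PSMA3 the largest. It read 12.08, 12.08 and 12.05 on IFNα arrays and 11.71, 11.68 and 11.66 on untreated arrays, changing by 0.39 on the log2 scale (SE 0.04; limma, adjusted p = 1.78e-06). PSMA4, PSMA5 and PSMA6 rose by 0.27 each and PSMA1 by 0.15, while PSMA7 had -0.04 and did not pass. Of the beta subunits, PSMB4 alone passed beside PSMB10, with 0.14, but not with eBayes without trend or after quantile normalization (0.11). The catalytic subunits PSMB5, PSMB6 and PSMB7 had changes of -0.01, -0.06 and -0.02 and did not pass. Of 6 ATPases 3 rose, PSMC3 by 0.34, PSMC6 by 0.18 and PSMC2 by 0.17, or by 0.11 with the mean of its probe sets. In contrast, 3 of 10 non-ATPase subunits fell and 1 rose. PSMD6, a subunit of the 19S lid, read 10.00, 9.97 and 9.99 on IFNα arrays and 10.19, 10.31 and 10.23 on untreated arrays, a log2 change of -0.26. Its dimmer probe set had 0.26, which did not pass, and the mean of both probe sets gave no change. PSMD1, which rose after IL6, had -0.17 after IFNα, and did not pass without untreated repeat 3 (-0.15). None of 3 assembly chaperones passed, and the PA200 activator gene PSME4 had -0.16 and did not pass either.

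Beside DNAJA1 and FKBP11, 4 chaperone and isomerase genes rose and 11 fell after IFNα, each by less than 1.5-fold. Of 24 heat shock protein and CCT genes none rose and 6 fell. For comparison, 6.74% of all probe sets rose and 9.99% fell, and of bright named genes 11.6% rose and 20.9% fell. CCT3, a subunit of the cytosolic chaperonin, read 11.18, 11.23 and 11.26 after IFNα and 11.48, 11.47 and 11.47 in untreated cells, a fall of 0.25 (limma, adjusted p = 6.99e-05). HSP90AA1 had -0.11 and passed, but not with eBayes without trend (adjusted p = 0.146), and with the mean of its 2 probe sets it had -0.25, which passed. HSP90AB1, HSPD1, HSPA5 and HSPB3 had changes of -0.10, -0.13, -0.15 and -0.29 that lost their pass when any of 4 or more arrays was left out. Of the J-domain proteins, DNAJC7 rose by 0.31, as did its other probe set. DNAJB9 and DNAJB1 had -0.24 and -0.21, the first an ER protein and the second the main stress-inducible partner of HSP70. DNAJB1 did not pass without untreated repeat 3 (-0.20) or IFNα repeat 2 (-0.205), while its dimmer probe set had -0.37 on all arrays and passed. Among 23 folding isomerases (PDIA, FKBP and PPI) 4 rose and 2 fell after IFNα, with a median change of -0.04. Those that fell were PDIA4 (-0.24) and FKBP7 (-0.22), and both passed with each array left out. PDIA4 did not pass under every other alternative. The ER isomerase FKBP2 had 0.27 and passed on its brighter probe set, but with the mean of both it had 0.17 and did not pass. PDIA3, the disulfide isomerase of the MHC class I loading complex, had 0.32 (limma, adjusted p = 0.0175), but 0.23 without untreated repeat 3 and 0.30 without IFNα repeat 2, neither of which passed. Its untreated arrays read 11.21, 11.30 and 10.98. PSME3IP1 rose by 0.46. Of 11 adrenal cortex markers 7 fell after IFNα, and the mean of that list ran from 6.56 to 6.64 on IFNα arrays and from 7.15 to 7.18 on untreated arrays. Of 11 fibroblast and mural markers 5 fell, with list means of 7.42 to 7.54 on IFNα arrays and 7.68 to 7.73 on untreated arrays. Of 7 endothelial markers 3 fell, with list means of 5.52 to 5.53 on IFNα arrays and 5.82 to 5.88 on untreated arrays. The part of these markers in the small falls was not tested.

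Histamine, the treatment sampled at 6 h, raised these families broadly. Of 112 members 60 rose (53.6%) and 6 fell (5.36%), against 15.1% and 16.4% of all probe sets (31.6% in either direction). Among bright named genes 30.1% rose and 26.6% fell, while among the 84 bright members 61.9% rose and 3.57% fell. The median change was 0.16 over members and 0.01 over all named genes. Whichever array was left out, 49 of the 60 rose and 4 of the 6 fell. Most changes were modest: 7 members rose and 1 fell by at least 1.5-fold (7.14% of members in either direction, against 5.70% of probe sets, 2.99% higher and 2.71% lower).

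The largest rise was that of DNAJB5, at 9.83, 9.87 and 9.74 on histamine arrays and 8.24, 8.37 and 8.29 on untreated arrays. This was 2.85-fold (log2 change 1.51, SE 0.12; limma, adjusted p = 3.21e-07), and its dimmer probe set rose by 0.94. DNAJB1 read 9.26, 9.31 and 9.10 after histamine, against 8.60, 8.60 and 8.63 in untreated cells, or 1.53-fold, and it stayed below 1.5-fold without histamine repeat 2 (0.57). The vesicle protein DNAJC5, cysteine string protein, rose by 0.49, or by 0.32 with the mean of its probe sets, and DNAJB6 and DNAJA1 rose by 0.36 and 0.47. Without histamine repeat 3 the change of DNAJA1 was 0.62, above 1.5-fold. In all, 8 of 25 J-domain genes rose and 3 fell, namely DNAJC9, DNAJC18 and DNAJC27, by 0.34, 0.33 and 0.32.

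Of 9 HSP70 and HSP110 genes 7 rose and none fell after histamine. HSPH1, an HSP110 exchange factor, read 11.61, 11.51 and 11.58 on histamine arrays and 10.95, 10.89 and 10.87 on untreated arrays, or 1.58-fold (log2 change 0.66, SE 0.08). Of its 3 dimmer probe sets 1 rose, by 0.56, the others had 0.29 and 0.06 and did not pass, and the mean of all was 0.39, which passed below 1.5-fold. HSPA4, its relative, read 10.09, 10.02 and 10.16 after histamine and 9.48, 9.44 and 9.40 in untreated cells, or 1.57-fold, and its other probe set rose by 0.80. HSPA14, a ribosome-associated HSP70, rose by 0.58, just under 1.5-fold, and reached it without untreated repeat 2 or 3 or histamine repeat 1 or 2 (0.59 to 0.60). The abundant cytosolic HSPA8 read 13.29, 13.27 and 13.18 after histamine, against 12.84, 12.81 and 12.74 in untreated cells, a rise of 0.45. HSPA1A, the stress-inducible form, rose by 0.37, although its 6 probe sets ranged from -0.12 to 0.70 and near-identical HSP70 genes can share its probes. HSPA9 rose by 0.39. The smallest of the 7 was HSPA5, with 0.15, or 0.11 and no pass without untreated repeat 2, and with the mean of its 3 probe sets it had -0.05. HSP90AA1 rose by 0.29, with all histamine arrays (13.23 to 13.28) above all untreated arrays (12.93 to 12.99), whereas HSP90AB1 had a change of 0.00 and did not pass.

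Of the CCT chaperonin, which folds actin and tubulin, 5 of 6 subunits measured rose after histamine. CCT2 read 11.58, 11.49 and 11.42 after histamine, against 10.96, 11.02 and 10.92 in untreated cells, changing by 0.53 on the log2 scale (SE 0.06; limma, adjusted p = 6.25e-06). CCT5, CCT8, CCT6A and CCT4 rose by 0.48, 0.39, 0.39 and 0.37. CCT3 had -0.02 and did not pass. The mitochondrial chaperonin genes HSPD1 and HSPE1, neighbours with no gene between them in ARS-UCD2.0, had changes of 0.20 and 0.14, of which HSPE1 did not pass without untreated repeat 3 (0.12).

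The small heat shock proteins went opposite ways after histamine. HSPB3, best known from muscle, read 8.34, 8.39 and 8.32 on histamine arrays and 7.53, 7.70 and 7.68 on untreated arrays, or 1.64-fold (log2 change 0.71, SE 0.07). HSPB1 rose by 0.32, or by 0.21 with the mean of its 2 probe sets. HSPB8, which works with the cochaperone BAG3 in selective autophagy, was the single member to fall by 1.5-fold or more. It read 10.12, 10.19 and 10.09 after histamine and 10.83, 10.83 and 10.91 in untreated cells, changing by -0.72 on the log2 scale (SE 0.04; limma, adjusted p = 1.66e-08). BAG3 itself, outside the rule, rose by 0.83 after histamine.

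**Figure D4:**
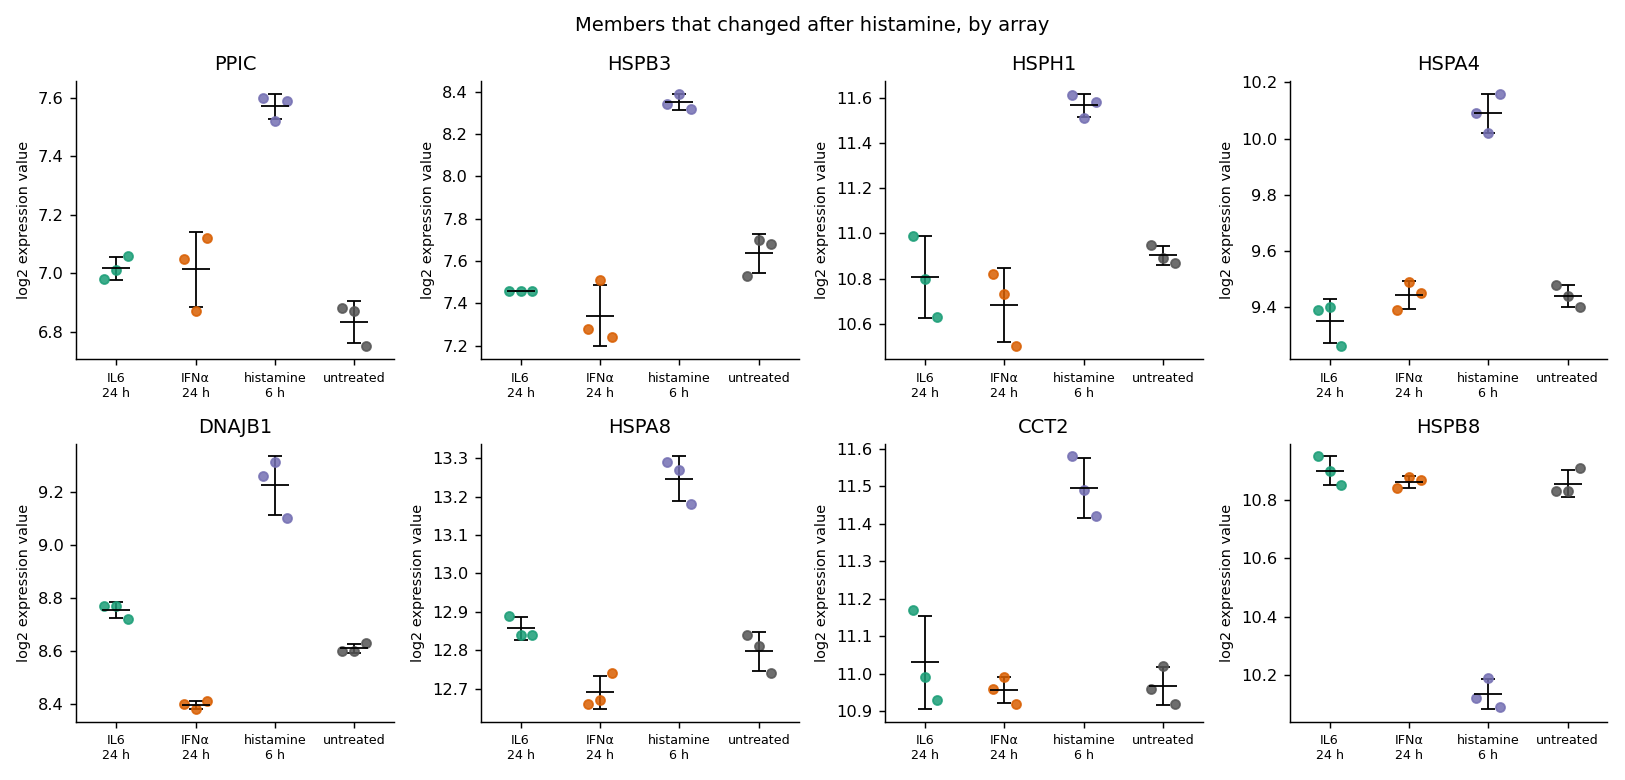
Log2 expression values (y axis) on each array (points), with group mean and SD (bars, n = 3), for 8 members that changed after histamine. In 7 panels the histamine arrays lie above every other array, and for HSPB8 they lie below every other array (10.09 to 10.19, against 10.83 to 10.95 elsewhere).

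Of the proteasome genes, 25 of 37 rose after histamine and 1 fell, with a median change of 0.17. PSMD1 was the largest, at 11.03, 11.07 and 11.15 on histamine arrays and 10.37, 10.43 and 10.46 on untreated arrays, or 1.58-fold (log2 change 0.66, SE 0.04; limma, adjusted p = 3.38e-08). All 6 alpha subunits rose, from 0.11 (PSMA6) to 0.35 (PSMA5), of which PSMA4 (0.15) did not pass when single arrays were left out. Of the beta subunits, PSMB1 rose by 0.22, or by 0.12 after quantile normalization, and PSMB2, PSMB5 and PSMB7 had 0.17, 0.14 and 0.13 with passes that depended on single arrays. PSMB10 had -0.07 and did not pass. Of the 19S subunits 11 of 16 rose, among them the ATPases PSMC4 and PSMC5 by 0.28 and 0.27, the ubiquitin receptor PSMD4 by 0.22 and the deubiquitinase PSMD14 by 0.21. PSMD6 rose by 0.34, but its dimmer probe set had -0.23 and the mean of both had 0.05, neither of which passed. The assembly chaperones PSMG1, PSMG2 and PSMG3 rose by 0.23, 0.46 and 0.28, and that of PSMG3 did not pass without untreated repeat 1 (0.23). PSMG2 read 10.41, 10.37 and 10.37 after histamine, against 9.87, 9.95 and 9.94 in untreated cells. The activators split: PSME4 rose by 0.25, PSME1 had -0.13, with a pass that was lost without untreated repeat 2 or histamine repeat 1, and PSME2 and PSMF1 (-0.09 and -0.16) did not pass.

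Of the folding isomerases 10 of 23 rose after histamine and none fell. The cyclophilin PPIC read 7.60, 7.52 and 7.59 on histamine arrays and 6.88, 6.87 and 6.75 on untreated arrays, or 1.67-fold (log2 change 0.74, SE 0.07). Its dimmer probe set had 0.11 and did not pass, and the mean of both was 0.42, which passed below 1.5-fold. PPIH, a spliceosome cyclophilin, rose by 0.34. PPID, a cochaperone of HSP90, rose by 0.31, but its dimmer probe set fell by 0.52 and the mean of both gave -0.10, which did not pass. FKBP4, another HSP90 cochaperone, read 10.08, 10.06 and 10.05 after histamine and 9.66 on all untreated arrays, a rise of 0.40. FKBP1A rose by 0.40 and FKBP11 by 0.25. FKBP5, a glucocorticoid-responsive gene in many tissues, had 0.16 and did not pass. It read only 4.76 to 5.22 over all arrays, near the lower quartiles of 5.02 to 5.11. PDIA5 had 0.41 and passed on its brightest probe set, but with the mean of its 3 probe sets it had 0.18 and did not pass. PDIA4 had 0.10 and did not pass, and PDIA3 had 0.24 with a pass that was lost when any of 7 arrays was left out.

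Of 38 other cochaperones and proteasome regulators measured, 24 rose and 4 fell after histamine, with a median change of 0.28. Beside BAG3, SERPINH1 and BAG1 rose by at least 1.5-fold, with 0.68 and 0.62. POMP, the maturation factor of the 20S core, rose by 0.42, and the heat shock factor gene HSF1 rose by 0.28. Of 17 ER folding and stress genes 9 rose and 2 fell, with a median of 0.20, and MANF, DNAJC3 and HSP90B1 rose by 0.81, 0.69 and 0.66. After IL6 the same lists had 4 higher and 6 lower of 38, and 2 higher of 17. After IFNα they had 3 higher and 2 lower of 38, and 2 higher and 4 lower of 17, with MANF at 1.35. Markers of other cells moved with histamine too. Of 11 cortex markers 8 rose, with list means of 7.57 to 7.60 on histamine arrays and 7.15 to 7.18 on untreated arrays. Of 11 fibroblast and mural markers 8 rose, with list means of 7.96 to 8.01 on histamine arrays and 7.68 to 7.73 on untreated arrays, while 5 of 10 chromaffin markers rose. The part of these markers in the rise of the members was not tested.

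**Figure D5:**
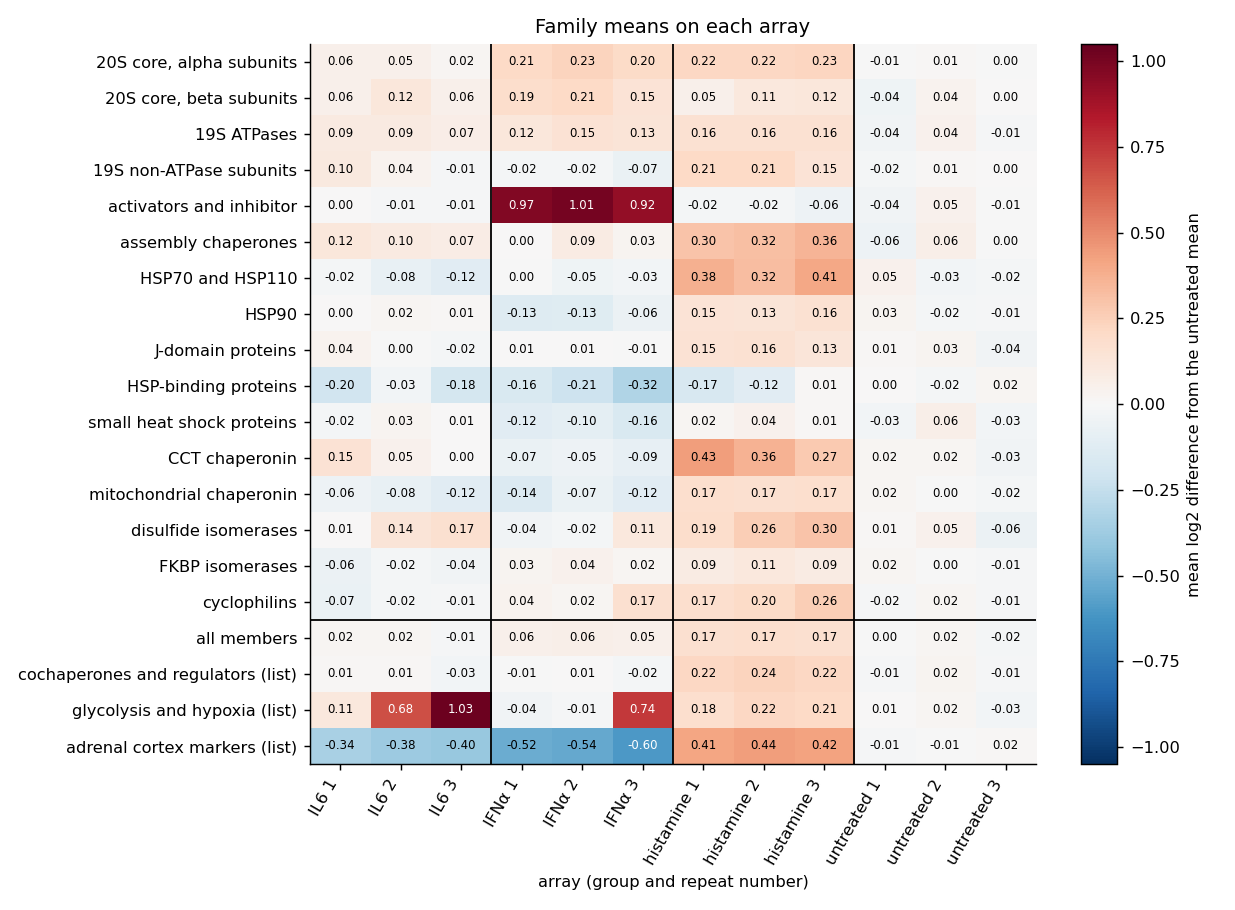
Mean log2 difference from the untreated mean (colour and number) of each family, of all members and of 3 comparison lists (rows) on each array (columns). The mean of all members is 0.17 on every histamine array and between -0.02 and 0.06 on the others, while the hypoxia list is raised on IL6 repeats 2 and 3 and IFNα repeat 3.

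Most family means were even across repeats in each group, and examples of those that were not follow. On the IL6 arrays the CCT mean stood 0.16, 0.05 and 0.00 from the untreated mean on repeats 1, 2 and 3, beside hypoxia list means of 0.11, 0.68 and 1.03. The HSP70 and HSP110 mean stood at -0.02, -0.08 and -0.12 there. Upward, the disulfide isomerase mean stood at 0.01, 0.14 and 0.17 on IL6 repeats 1, 2 and 3, and the cyclophilin mean at -0.07, -0.02 and -0.01. On IFNα repeats 1, 2 and 3 these means were -0.04, -0.02 and 0.11, and 0.04, 0.02 and 0.17. The hypoxia list means on these IFNα arrays were -0.04, -0.01 and 0.74. On histamine arrays the CCT mean stood at 0.44, 0.36 and 0.27, with hypoxia list means of 0.18, 0.22 and 0.21. The part of the hypoxia genes in these differences between repeats was not tested.

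Between the cytokines, both given for 24 h, 22 members were higher and 26 lower after IL6 than after IFNα (42.9%). Of all probe sets 28.5% passed (13.7% higher, 14.8% lower). Among the 84 bright members the share was 48.8%, against 47.4% of bright named genes. At 1.5-fold 2 were higher and 5 lower (6.25% of members, against 6.11% of probe sets, 2.82% higher and 3.29% lower). DNAJC12 and DNAJB5 were the higher ones, with log2 differences of 1.18 and 0.64. DNAJB5 read 8.69, 8.81 and 8.96 on IL6 arrays and 7.98, 8.01 and 8.55 on IFNα arrays, and fell below 1.5-fold without IL6 repeat 3 (0.57), IFNα repeat 1 (0.54) or IFNα repeat 2 (0.555), or with the mean of its probe sets (0.495). The lower ones were PSMF1, FKBP11, PSME2, PSME1 and PSMB10, with log2 differences of -1.60, -1.36, -1.29, -0.99 and -0.96.

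Smaller differences ran through the same complexes. PSMD1 read 10.79, 10.78 and 10.74 on IL6 arrays and 10.26, 10.28 and 10.22 on IFNα arrays, a difference of 0.52 (SE 0.04; limma, adjusted p = 2.3e-07). PSMA3, PSMA6 and PSMC3 were lower after IL6, with differences of -0.38, -0.35 and -0.32. FKBP1A, the small FK506-binding protein that associates with ryanodine receptors, read 10.55, 10.66 and 10.75 after IL6 and 10.01, 10.05 and 10.35 after IFNα, a difference of 0.52, or 0.62 and above 1.5-fold without IFNα repeat 3. IFNα repeat 3, which carries raised hypoxia genes, was the highest of its group for both FKBP1A and DNAJB5. The part of the hypoxia genes in these values was not tested. CCT3, DNAJB1 and DNAJB9 were higher after IL6 than after IFNα by 0.28, 0.36 and 0.34, but the dimmer probe set of DNAJB1 had 0.19 and did not pass. DNAJA1 and DNAJC7 were lower after IL6 than after IFNα, with differences of -0.51 and -0.39.

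The comparisons with untreated cells share their 3 control arrays, so their values are set side by side only. PSMA1 had changes of 0.12 after IL6, 0.15 after IFNα and 0.24 after histamine. PSMD1 had 0.35, -0.17 and 0.66, DNAJB5 had 0.52, -0.12 and 1.51, and DNAJA1 had 0.20, 0.71 and 0.47 in that order, of which the IL6 value of DNAJA1 and the IFNα value of DNAJB5 did not pass.

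Genes outside the rule with the most similar profile over the 12 arrays were listed as a description, since arrays of a group share their treatment. Closest to DNAJC12 were HSD3B7, SOCS3 and GPX2, at Pearson's r of 0.990, 0.988 and 0.987. Closest to the mean of the 6 genes raised by IFNα were IFI44, SAMD9 and MDK, at 0.998, 0.998 and 0.996, and PSMB8 was among the first 5 at 0.996. Closest to the mean of the 7 genes raised at least 1.5-fold by histamine were GARS1, DCLK1 and VIP, at 0.999, 0.998 and 0.994.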

How the data were processed

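Biotin-labelled RNA of the chromaffin cells was hybridised to Affymetrix arrays, per the labels' protocols. For 24128 probe sets the deposited table gives log2 values. The authors used RMA to make these log2 values, per the submitters' processing notes, in a version not given in the sources used here. All arrays share a mean of 6.79 but not their quartiles, and the values carry no detection calls. The number of arrays limits the precision. RMA compresses small differences of dim probe sets.

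From these values, 112 control probe sets were left out, 3 of which carry the symbol PPIB, and 24016 were tested. By the platform annotation 13292 of these had 1 symbol, 86 had several and 10638 had none. Of the 112 members, 111 matched the RefSeq cattle table by gene identifier, and 80 had a single probe set. Groups, doses and times came from the sample labels. limma 3.58.1 in R 4.3.3 fitted a mean per group over all 12 arrays (lmFit), followed by eBayes with a trend and Benjamini-Hochberg adjustment over all probe sets. Calls used an adjusted p under 0.05, alone and with a fold of at least 1.5. SDs are over 3 arrays. The procedure was tested on simulated data.

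The members, the lists and the naming rule were chosen with earlier results of these data known. That rule names members changed by at least 1.5-fold, up to 4 passing members of each family, and a set of well-known members. DNAJB6, DNAJC9, DNAJC18, CCT4, PSMA4, PSMA6 and PSMD14 after histamine were named after their values were seen. Repeat numbers were not used as pairs in the main fit. Deviations of same-numbered arrays from group means correlated between -0.07 and 0.60 across pairs of groups. Whether the numbers pair the arrays was not tested. Alternatives were other fold minimums, eBayes without trend or robust, array weights, no dim probe sets, median centring, quantile normalization, the compared groups alone, a replicate block, the mean over a gene's probe sets, and leaving out each array. Dropping IL6 repeats 2 and 3 and IFNα repeat 3 together was chosen after seeing the data. No sequences were used here. Python 3.11.15 with matplotlib 3.10.9 drew the figures.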

Additional observations from a re-analysis of the deposited data

How the results depend on the processing

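The counts at 1.5-fold kept within 1.5 times of their value under each alternative except these. With no fold minimum the counts higher and lower were 11 and 13 after IL6, 21 and 14 after IFNα, 60 and 6 after histamine, and 22 and 26 for IL6 against IFNα. With a fold minimum of 1.2 they were 6 and 5, 15 and 1, 38 and 5, and 10 and 17. The count higher after IL6 than after IFNα was 1 with the mean over each gene's probe sets. Leaving out each array gave 1 to 2 members higher after IL6 and 1 to 3 higher after IL6 than after IFNα.

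With array weights the counts at an adjusted p alone were 29 higher and 22 lower after IL6, 23 lower after IFNα, 10 lower after histamine, and 36 higher for IL6 against IFNα. eBayes without trend gave 7 higher after IL6 and 8 lower after IFNα, and median centring gave 19 higher after IL6. With IL6 repeats 2 and 3 and IFNα repeat 3 left out, 4 were lower after IL6, the lone IL6 array being assumed to vary like the other groups. The replicate block gave 22 lower after IFNα and changed no other count by over 1.5 times. Deviations of same-numbered IL6 and IFNα arrays correlated at 0.53, -0.07 and 0.60 on repeats 1, 2 and 3. In the other pairs of groups they correlated between -0.01 and 0.26. Arrays of unlike number were not compared, so whether the repeat numbers pair the arrays was not tested. Leaving out each array gave 6 to 12 higher and 7 to 14 lower after IL6. The cause of these moves was not tested.

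With the mean over each gene's probe sets, 5 values of named members turned: HSPA5 and PPID after histamine to -0.0511 and -0.1033, PPIB after IL6 to 0.015, and PSMD6 to 0 after IFNα and -0.01 for IL6 against IFNα. Over the named members and all alternatives, 4314 values kept their side of the threshold, 248 lost their pass and 70 gained one. Scanner files were not used here, so the background correction could not be varied.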
